A study of Mus musculus with 16 samples.

Results

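The autophagy machinery, as a set of 35 genes, was followed in sorted mouse brain immune cells. The set was given by name and covers initiation (5 genes), nucleation (6), membrane supply and WIPI proteins (4), conjugation (7), the LC3 and GABARAP family (5), cargo receptors with their kinase (6) and mitophagy receptors (2). Transcripts of the deposited tables were summed to gene symbols, an unlisted transcript counting as 0, which gave 18580 genes in 16 libraries, and all 35 members were found among them. Microglia (CD11b positive, CD45 low to intermediate) and macrophages (CD11b positive, CD45 high) came from mouse brains of both sexes and were sequenced in bulk by SMART-seq2, a full-length cDNA method.

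The mice were CD163KO animals, which carry the germline allele CD163tm1.1(KOMP)Vlcg and lack the haemoglobin scavenger receptor CD163 in every cell, or their wild-type (WT) C57BL/6N littermates. All were 12 weeks old at surgery and had received α-synuclein into both striata, either as monomer (MONO) or as pre-formed fibrils (PFF), 2 months before the cells were taken. No group without α-synuclein was sequenced, so MONO is the reference and not an untreated state. In each of the 8 combinations of sex, genotype and treatment 7 WT or 5 CD163KO mice were injected, with 4 mice for male CD163KO MONO. How many of these mice stand behind each sequenced sample is not stated in the sources used here. Each combination gave 10000 to 30000 macrophages and 200000 to 500000 microglia, and there was 1 deposited table, called a library here, per population and combination. The sources used here speak of triplicates but do not say whether a table holds one of them, their sum or their mean. With 1 table per combination, p-values do not measure a spread between replicates. Within a population they rest on what additive terms for genotype, treatment and sex leave unexplained. Between populations they rest on how the difference varies over the pairs. The study left male CD163KO MONO out of its analysis, and the tests here leave both of these libraries out while the levels show them.

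Cd163, the deleted gene, was at 16.2, 7.95, 20.5 and 65.3 FPKM (fragments per kilobase of transcript, relative to library size) in the 4 WT macrophage libraries and at 0 to 0.01 in the 4 CD163KO ones. Microglia held 0 to 1.43 FPKM whatever the genotype, so the gene did not check their labels. Of 10 homeostatic microglia markers, 9 were higher in microglia (edgeR, adjusted p of at most 0.05), and of 10 border-associated macrophage markers 9 were lower there. The macrophage gate held neutrophils: the 10 neutrophil markers summed to between 22150 and 134600 FPKM in macrophage libraries and to between 951 and 2725 in microglia. The 10 border-associated macrophage markers summed to between 1845 and 5103 FPKM in macrophage libraries, below the neutrophil sum in all of them. Macrophages below thus means all cells of this gate. Counts of 3 of 4 Y-linked genes stood in the microglia library labelled female CD163KO MONO. No other library labelled female held counts of at least 3 of them. Whether this library comes from the same mice as its matched macrophage library was therefore not settled.

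Total estimated counts ran from 12170686 to 21433841 in macrophages and from 8648751 to 18768238 in microglia. The libraries differed more in how the counts were spread over genes. In 6 macrophage libraries the 10 most abundant genes took 39.6% to 64.0% of the counts, against 13.5% to 16.4% in 6 microglia libraries, and these will be called concentrated and even libraries, divided at 30%. Male WT PFF and male CD163KO MONO ran the other way, with 16.5% in each of their macrophage libraries and 58.7% and 47.7% in their microglia. Their population markers followed the labels. Homeostatic microglia genes summed to 1758 FPKM in male WT PFF macrophages against 42340 in the matched microglia, and to 1866 against 37350 in male CD163KO MONO. Genes of border-associated macrophages summed to 4351 against 28.9 and to 4943 against 52.2. The male WT PFF macrophage library listed only 8378 genes and had 6 members at 0 and 13 under 10 counts, and male CD163KO MONO macrophages had 4 members at 0. In the other 14 libraries at most 2 members were at 0.

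Macroautophagy builds a membrane sac around cytoplasm and delivers it to the lysosome. The ULK complex starts the process, a class III phosphatidylinositol 3-kinase built on Beclin 1 marks the membrane, and 2 linked conjugation reactions attach proteins of the LC3 and GABARAP family to its lipid. Cargo receptors such as p62 bind both ubiquitinated material and these lipid-anchored proteins. In microglia and macrophages the pathway is known for clearing protein aggregates, α-synuclein among them, and for limiting inflammasome activity, and much of its control lies in the proteins rather than in the amounts of mRNA.

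Promoter sequences of the RefSeq table (GRCm38.p6, the build of the mm10 named in the submitters' processing notes) were held for 28 of the 35 members. The 250 bases before each transcript start that the table gives were searched for the E-box CACGTG, a palindrome bound by TFEB and related factors that drive lysosomal and autophagy genes. It stood in 4 of the 28 (14.3%) and in 1854 of all 27025 genes in the table (6.86%). TGACNNNGC, a core of the antioxidant response element searched on both strands, stood in another 4 members (Atg13, Tax1bp1, Ulk2 and Vmp1) and in 11.5% of all genes. These starts are not always the outermost start of the gene, and those of Atg7 and Atg5 lie 27969 and 17 bases inside it, so their windows belong to an inner start. A match is a stretch of letters and not a shown binding site. The 4 windows with CACGTG are given below, and a link between the motif and the levels of these genes was not tested. Capitals mark the motif.
Atg3, chr16:45158579-45158828, plus strand: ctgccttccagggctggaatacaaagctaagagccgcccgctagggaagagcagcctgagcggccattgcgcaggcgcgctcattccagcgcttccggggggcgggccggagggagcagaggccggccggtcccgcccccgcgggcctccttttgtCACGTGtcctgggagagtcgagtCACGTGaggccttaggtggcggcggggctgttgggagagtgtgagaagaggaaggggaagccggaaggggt
Atg5, chr10:44268089-44268338, plus strand: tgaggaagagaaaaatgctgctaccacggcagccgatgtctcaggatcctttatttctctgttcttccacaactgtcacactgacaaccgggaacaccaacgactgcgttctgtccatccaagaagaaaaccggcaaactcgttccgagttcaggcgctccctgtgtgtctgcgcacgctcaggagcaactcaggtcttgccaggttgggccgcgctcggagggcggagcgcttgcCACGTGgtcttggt
Atg7, chr6:114670846-114671095, plus strand: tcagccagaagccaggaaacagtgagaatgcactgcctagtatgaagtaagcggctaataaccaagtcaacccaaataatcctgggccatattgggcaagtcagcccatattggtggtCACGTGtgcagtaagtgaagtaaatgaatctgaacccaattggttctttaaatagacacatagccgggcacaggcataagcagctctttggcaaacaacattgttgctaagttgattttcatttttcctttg
Bnip3, chr7:138909507-138909756, minus strand: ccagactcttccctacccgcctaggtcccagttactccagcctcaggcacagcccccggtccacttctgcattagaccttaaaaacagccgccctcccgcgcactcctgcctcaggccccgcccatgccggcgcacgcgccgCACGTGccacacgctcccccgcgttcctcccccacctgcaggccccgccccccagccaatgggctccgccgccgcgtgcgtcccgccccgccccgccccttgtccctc
The Atg3 window holds the motif at 2 places, 94 and 71 bases before that start.

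Gabarap and Map1lc3b had the highest levels of the 35 members in both populations. Over the 8 libraries of a population the median FPKM was 247.6 for Gabarap and 228.6 for Map1lc3b in macrophages, and 186.7 and 174.4 in microglia. Next in macrophages came Atg101 (median 68.6), Becn1 (57.6) and Sqstm1 (49.0), and in microglia Sqstm1 (124.5), Gabarapl2 (84.1) and Becn1 (65.1). The ranges of these genes overlapped from library to library, so their order was not settled. At the low end stood Pik3r4 (0.38), Ambra1 (0.755) and Atg14 (0.795) in macrophages and Optn (0.56), Wipi1 (2.26) and Atg7 (2.62) in microglia. Of the 35 genes, 27 were above 0 in every macrophage library and 33 in every microglia library. The median member stood at 4.17 FPKM in macrophages and 17.3 in microglia, but FPKM falls for most genes where a few genes take most of the counts, and the heat map shows the concentrated libraries dark in both populations.

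**Figure D1:**
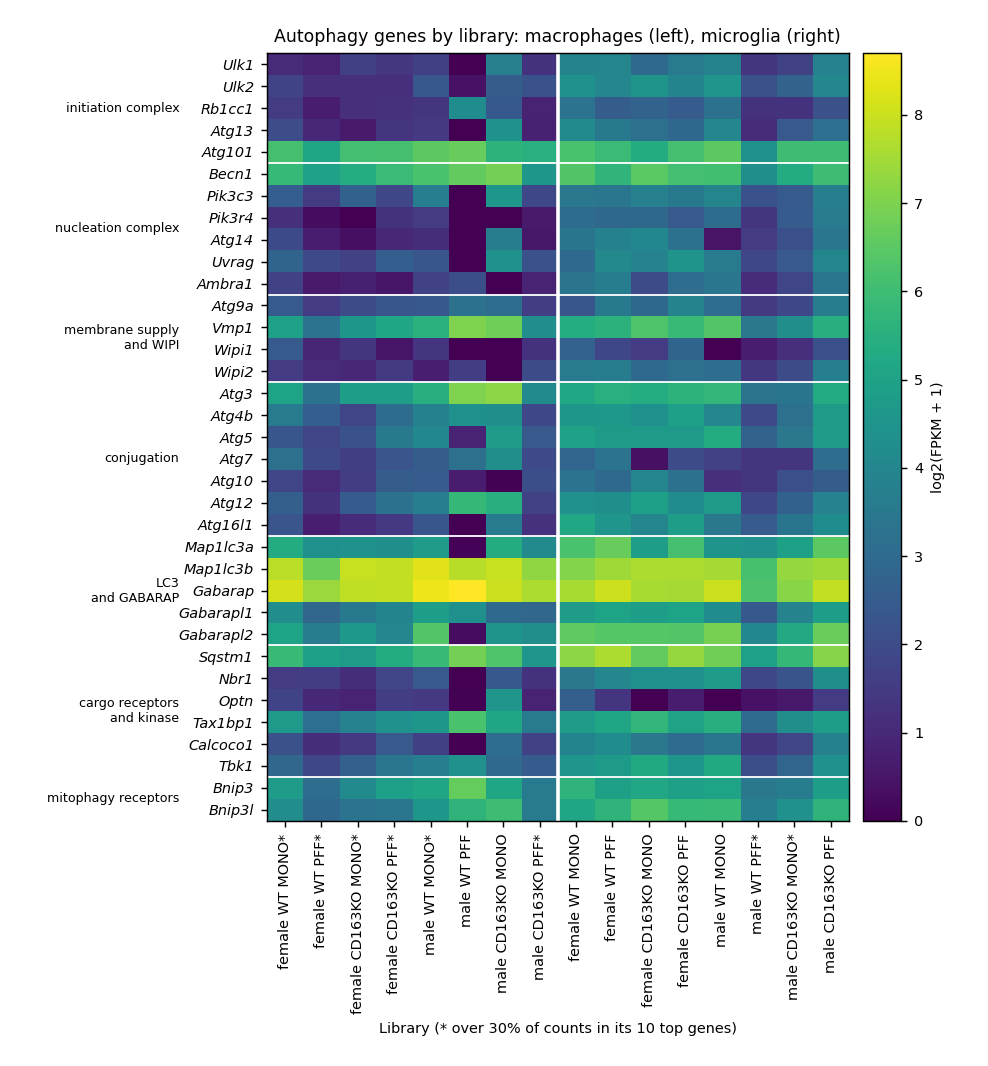
Heat map of log2(FPKM + 1) for the 35 autophagy genes (rows, grouped by role) in the 16 libraries (columns, macrophages left of the white line, microglia right); an asterisk marks libraries with over 30% of their counts in 10 genes. Gabarap and Map1lc3b are bright throughout, male WT PFF macrophages hold members at or near 0 beside very high ones, and the microglia of male WT PFF and male CD163KO MONO are darker than the other 6.

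Between libraries the members were therefore compared on count shares (CPM) scaled by TMM factors (scaled CPM), which are meant to set the bulk of genes level. The members were tested with edgeR on the 14 libraries other than male CD163KO MONO. The matched pair of populations, sorted from the same brains by the study's account, was a block. All 35 members passed the filter on low counts in each comparison. In microglia against macrophages 10 of the 35 (28.6%) passed the test at an adjusted p of at most 0.05, against 18.2% of all 13704 genes tested. One was higher in microglia (Ulk2; 6.64% of all genes) and 9 were lower (25.7% of the members; 11.6% of all genes), and 8 of the 10 differed by a log2 fold of at least 1 (16.9% of all genes). The median log2 fold change was 0.01 over the members and 0.37 over all genes. A lower value in a bulk library may stand for fewer cells that carry the RNA or for less of it per cell, and these cannot be told apart here.

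The LC3 and GABARAP genes, whose products are anchored in the autophagosome membrane, held the clearest differences. Gabarap (chr11:69991370-69994949) was at 189 to 469 scaled CPM in macrophages (median 391) and at 111 to 181 in microglia (median 155). All 8 macrophage libraries lay above all 8 microglia libraries, a separation shared by 2 of the 35 members in either direction and by 10.7% of all genes. Its log2 fold change, microglia over macrophages, was -1.86 ± 0.23 (SE; edgeR adjusted p = 0.000196). Map1lc3b (chr8:121590438-121598760), which encodes LC3B, the usual marker of autophagosomes, was at 252 to 783 scaled CPM in macrophages (median 494) and at 122 to 311 in microglia (median 184). The groups overlapped only through the even macrophage libraries and the concentrated microglia libraries, the 2 reversed combinations. The difference was -1.82 ± 0.30 (adjusted p = 0.00127).

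The remaining family members did not pass the test. Gabarapl1 was at 8.17 to 50.6 scaled CPM in macrophages and 15.9 to 33.3 in microglia (log2 difference -0.69 ± 0.33, adjusted p = 0.171). Gabarapl2, which also serves Golgi traffic, was at 0.151 to 79.7 in macrophages and 32.0 to 63.3 in microglia (0.53 ± 0.72, adjusted p = 0.649). Map1lc3a had 0.0378 to 52.9 in macrophages and 12.3 to 61.9 in microglia (-0.09 ± 0.91, adjusted p = 0.957). The lowest macrophage values of Gabarapl2 and Map1lc3a were both those of male WT PFF, with 4 counts and 1 count.

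Shares within the family do not depend on the scaling between libraries. Gabarap and Map1lc3b together made up 83.2% to 97.0% of the summed FPKM of the 5 genes in macrophages (median 88.6%) and 62.5% to 78.9% in microglia (median 70.3%), with no overlap. Gabarapl2 took 0.0353% to 10.1% in macrophages and 8.47% to 20.0% in microglia, and Map1lc3a 0.00768% to 7.01% and 3.62% to 15.6%. The 2 concentrated microglia libraries lay nearest to macrophages in the Gabarapl2 share, at 8.47% and 9.65%. These shares are a description, without a test.

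**Figure D2:**
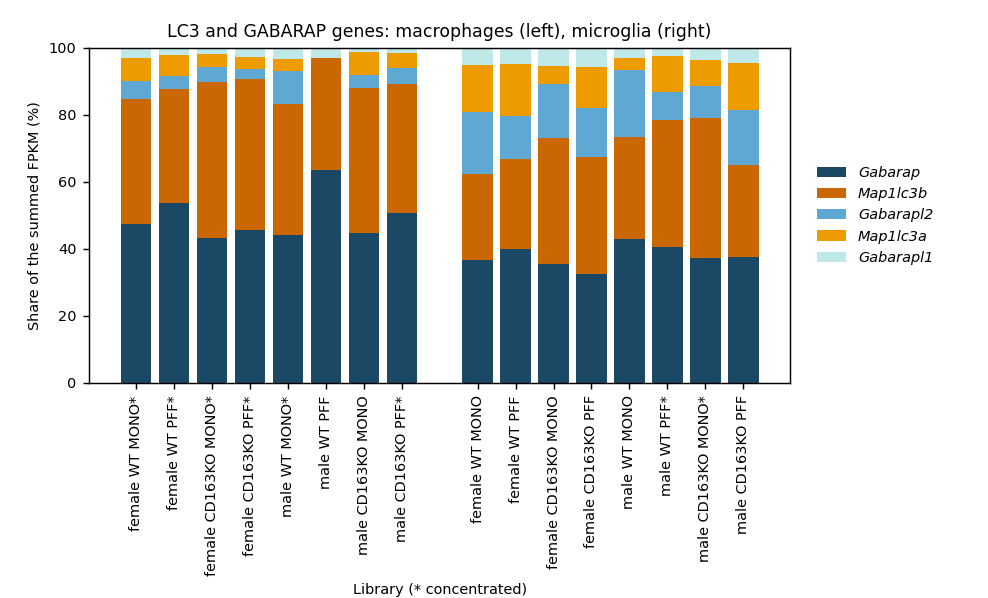
Stacked bars of the share (%) each of the 5 LC3 and GABARAP genes takes of their summed FPKM in each library; macrophages are left, microglia right, and an asterisk marks concentrated libraries. Gabarap and Map1lc3b make up 83.2% to 97.0% of the bar in macrophages and 62.5% to 78.9% in microglia.

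Among the initiation genes, one passed in each direction. Atg101, which holds ATG13 stable in the ULK complex, was at 39.4 to 151 scaled CPM in macrophages (median 106) and at 27.7 to 87.0 in microglia (median 48.1). The groups overlapped through male CD163KO MONO, where microglia (87.0) lay above macrophages (39.4). The log2 difference was -1.61 ± 0.28 (edgeR adjusted p = 0.00163). The Atg101 value stayed below 0 in all alternatives. Its call was lost on library size alone, with limma on either FPKM scale and with count concentration as a term. Ulk2, one of the paired initiating kinases, was at 1.32 to 42.5 in macrophages (median 18.5) and at 39.4 to 73.0 in microglia (median 53.2). Of the macrophage libraries only male CD163KO PFF (42.5) reached the microglia range, and the difference was 1.65 ± 0.52 (adjusted p = 0.0474). The call was kept in 2 of the 7 fits that left out 1 pair (1.23 to 1.96) and was lost without the block (1.32, adjusted p = 0.0717). Ulk1 had a difference of the same size with a larger error (1.69 ± 0.74, adjusted p = 0.145), as had Atg13 (1.65 ± 0.77, adjusted p = 0.167), and Rb1cc1, the scaffold FIP200, was at 0.12 ± 0.43 (adjusted p = 0.877).

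Of the nucleation genes Becn1, the core of the lipid kinase complex, passed. It was at 96.3 to 173 scaled CPM in macrophages (median 151) and at 60.4 to 102 in microglia (median 81.1). Male CD163KO PFF macrophages (96.3) were the only ones within the microglia range, and the log2 difference was -1.16 ± 0.22 (edgeR adjusted p = 0.00267). Its partners lay from 0.10 ± 0.86 for Pik3c3, the catalytic subunit, to 2.47 ± 1.22 for Pik3r4, its regulatory subunit (adjusted p = 0.192). Pik3r4 was at 0 in 3 macrophage libraries and at 12.7 to 32.6 scaled CPM in microglia. Atg14, which directs the complex to the forming autophagosome, was at 0 to 27.6 in macrophages and 0.72 to 31.7 in microglia (1.87 ± 1.20, adjusted p = 0.308). These calls moved with the scaling or the test used. Becn1 was at 0.29 on library size alone and at 0.22 with limma on either FPKM scale, passing in none of them. Pik3r4 and Ambra1, a partner of Becn1, passed as higher in microglia with DESeq2 (adjusted p = 0.0209 and 0.0248), on library size alone and with limma on both FPKM scales.

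Vmp1, an endoplasmic reticulum protein that moves lipid to the growing sac, was at 59.0 to 219.8 scaled CPM in macrophages (median 116) and at 54.1 to 117 in microglia (median 68.3). The ranges overlapped widely and the log2 difference was -0.84 ± 0.26 (edgeR adjusted p = 0.0416). The Vmp1 call was kept in 2 of the 7 fits that left out 1 pair and was lost with no filter on low counts (-0.49, adjusted p = 0.324). The Vmp1 value turned to above 0, without passing, on library size alone and with limma on either FPKM scale. Atg9a (-0.45 ± 0.40), Wipi2 (0.95 ± 0.47) and Wipi1 (-0.68 ± 1.57) did not pass.

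In the conjugation group Atg3 and Atg7 were lower in microglia. Atg3, the E2-like enzyme that passes LC3 to lipid, was at 45.7 to 197 scaled CPM in macrophages (median 85.7) and at 21.9 to 58.1 in microglia (median 46.9). Only female WT PFF macrophages (45.7) fell within the microglia range, and the log2 difference was -1.18 ± 0.27 (edgeR adjusted p = 0.00915). The Atg3 call was lost with no filter on low counts (-0.83, adjusted p = 0.0958). On library size alone and with limma on either FPKM scale the Atg3 value turned to above 0 without passing. Atg7, the E1-like enzyme of both reactions, was at 14.4 to 48.0 in macrophages (median 21.6) and at 0.68 to 20.5 in microglia (median 9.50). The difference was -1.86 ± 0.56 (adjusted p = 0.0402), and the lowest microglia value came from the female CD163KO MONO library with the Y-linked counts. The Atg7 call was kept in 1 of the 7 fits that left out 1 pair (-2.07 to -1.47), that without male WT PFF, and the other 6 had adjusted p from 0.0631 to 0.111. Atg16l1, which fixes the site of conjugation, had the largest value in the other direction that did not pass (2.12 ± 0.89, adjusted p = 0.131), at 0 to 23.3 scaled CPM in macrophages and 17.3 to 60.1 in microglia. Atg4b, Atg5, Atg10 and Atg12 lay between -0.24 and 0.94.

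Among cargo receptors Sqstm1, which encodes p62, did not differ detectably. It was at 88.7 to 158 scaled CPM in macrophages (median 116) and at 112 to 228.5 in microglia (median 146), and the log2 difference was 0.01 ± 0.19 with a 95% interval from -0.37 to 0.39 (edgeR adjusted p = 0.983). It passed as higher in microglia on library size alone (1.53, adjusted p = 0.0252) and with limma on log2(FPKM + 1) (1.36, adjusted p = 0.0475) and log2(FPKM + 0.1) (1.38, adjusted p = 0.0463). Tax1bp1, a receptor that shares ubiquitin cargo with p62, was at 67.0 to 163 in macrophages (median 79.9) and at 48.5 to 99.02 in microglia (median 63.2). The ranges overlapped and the difference was -0.85 ± 0.25 (adjusted p = 0.0383). The Tax1bp1 call was kept in 2 of the 7 fits that left out 1 pair, and was lost with all libraries (-0.73, adjusted p = 0.0815) and with no filter (-0.51, adjusted p = 0.311). Its value turned to above 0, without passing, on library size alone and with limma on either FPKM scale. Nbr1, a relative of p62, had 0 to 24.6 in macrophages and 20.3 to 69.7 in microglia (1.74 ± 0.83, adjusted p = 0.176). Optn, a receptor for mitochondria and bacteria, was the lowest member in microglia, at 0 to 7.66 against 0.0755 to 39.7 in macrophages (-2.40 ± 1.75, adjusted p = 0.373). Calcoco1 (0.95 ± 0.91) and Tbk1, the kinase that activates optineurin and p62 (0.08 ± 0.31), did not pass.

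Of the paired mitophagy receptors, Bnip3 was lower in microglia and Bnip3l did not differ detectably. Bnip3, which hypoxia induces, was at 34.9 to 116 scaled CPM in macrophages (median 56.3) and at 23.8 to 46.7 in microglia (median 30.8), with a log2 difference of -1.11 ± 0.25 (edgeR adjusted p = 0.00955). The Bnip3 call was lost with no filter on low counts (-0.77, adjusted p = 0.116). Bnip3l, or NIX, was at 45.0 to 139 in macrophages and 60.4 to 157 in microglia (0.19 ± 0.26, adjusted p = 0.65). On library size alone and with limma on log2(FPKM + 1) and log2(FPKM + 0.1), Bnip3l passed as higher in microglia at 1.73, 1.51 and 1.57 (adjusted p = 0.0226, 0.0424 and 0.0454). Bnip3 turned to 0.42, 0.25 and 0.27 there and did not pass. Bnip3 took 35.5% to 75.2% of the FPKM of the pair in macrophages (median 59.5%) and 29.5% to 59.2% in microglia (median 36.3%).

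**Figure D3:**
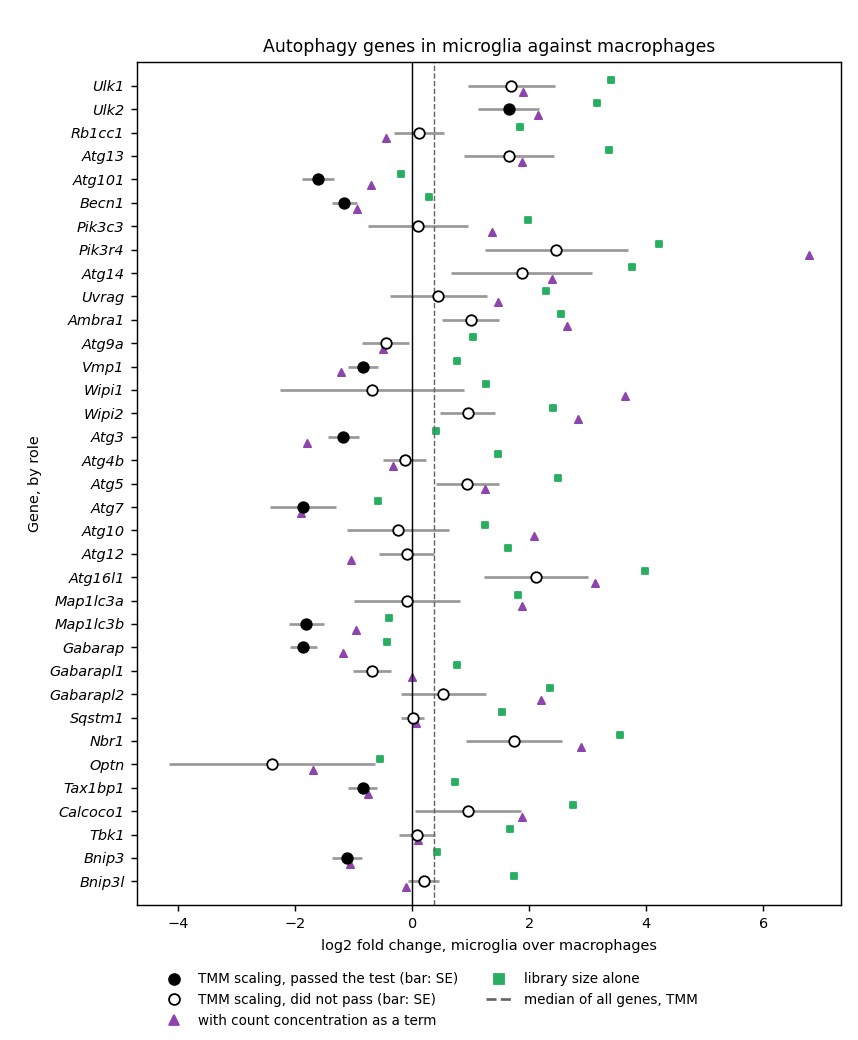
Log2 fold change of each of the 35 genes, microglia over macrophages: circles are the TMM-scaled edgeR values with their SE (filled where the adjusted p was at most 0.05), triangles the values with count concentration as a term over 16 libraries, squares those with library size alone, and the dashed line the median of all genes (0.37). Filled circles are 9 genes below 0 and Ulk2 above 0, and every square lies to the right of its circle.

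How far these values hold was examined in the reversed combinations. With count concentration as a term over all 16 libraries, chosen after seeing the data, 11 members passed (27.3% of all genes), 8 lower (10.5%) and 3 higher (16.8%) in microglia. Gabarap was at -1.19 ± 0.18 (edgeR adjusted p = 0.000593), Map1lc3b at -0.96 ± 0.15 (adjusted p = 0.000862), Becn1 at -0.94 ± 0.19 (adjusted p = 0.00332) and Atg3 at -1.79 ± 0.24 (adjusted p = 0.000281). Map1lc3b and Gabarap thus kept their sign with values smaller by over 1.5 times, while the median of all genes moved from 0.37 to 1.07. Relative to that median Gabarap was at -2.26 and Map1lc3b at -2.03, against -2.23 and -2.19 before. In this fit Ulk2 (2.15 ± 0.53, adjusted p = 0.0119), Bnip3, Atg7 and Vmp1 passed again. Atg101 and Tax1bp1 no longer passed. In the same fit 7 members differed between concentrated and even libraries at equal population (14.7% of all genes). Of these, 5 were higher in concentrated libraries (11.8% of all genes), among them Map1lc3b (1.12 ± 0.15), Atg101 (1.07 ± 0.30) and Gabarap (0.83 ± 0.18), and Atg3 and Atg12 were lower (2.87% of all genes).

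Among the concentrated libraries alone, 6 of macrophages and 2 of microglia, 4 members passed (18.8% of all genes): Gabarap (-1.26 ± 0.28), Atg3 (-1.37 ± 0.36) and Map1lc3b (-0.997 ± 0.313) were lower in microglia (9.89% of all genes) and Atg16l1 (1.75 ± 0.40) was higher (8.9%). Among the even libraries, 2 of macrophages and 6 of microglia, 7 passed (23.1% of all genes). Atg3 (-1.88 ± 0.23), Atg12 (-1.47 ± 0.34), Vmp1 (-1.23 ± 0.30), Becn1 (-0.86 ± 0.24) and Gabarap (-0.86 ± 0.26) were lower in microglia (8.02% of all genes), while Pik3r4 and Wipi1 were higher (15.1%), at 0 in both macrophage libraries, so no fold is given. Gabarap and Atg3 were the members that passed in both. On library size alone the all-gene median moved to 1.96 and 18 members passed, all higher in microglia (46% of all genes passed, 41.7% higher and 4.37% lower), but Gabarap (-0.44), Map1lc3b (-0.40), Atg101 (-0.20) and Atg7 (-0.58) stayed below 0 without passing and Becn1 turned to 0.29. Relative to the median of all genes these were -2.40, -2.36, -2.16, -2.53 and -1.67. Without the male WT PFF pair 16 members passed (35.7% of all genes), 10 lower (19.2%) and 6 higher (16.5%) in microglia, the 6 being Ulk1, Ulk2, Atg13, Ambra1, Atg16l1 and Nbr1. DESeq2 passed 17 members (34.4% of all genes), 9 lower (16.3%) and 8 higher (18.2%), and limma on log2(FPKM + 1) passed 17, all higher (47.1% of all genes; 42% higher and 5.08% lower). Leaving out the female CD163KO PFF, female WT MONO or male WT MONO pair left 6, all of them lower in microglia, beside 13.3%, 13.5% and 13.6% of all genes.

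**Figure D4:**
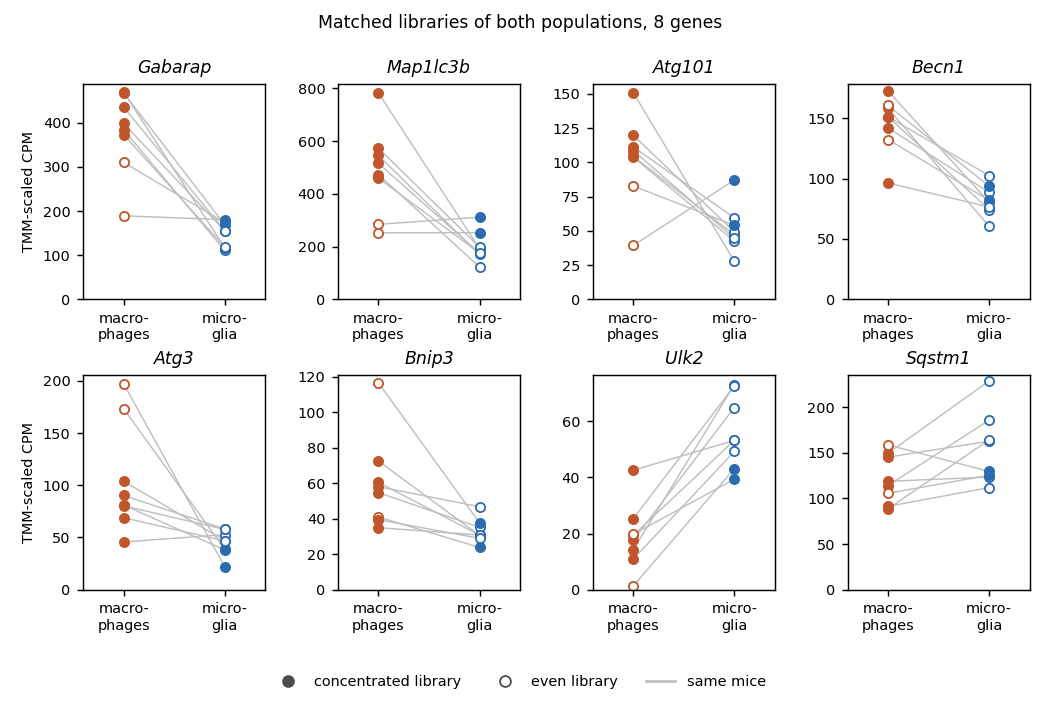
TMM-scaled CPM of 8 genes in the macrophage and microglia libraries of the same mice, joined by lines; filled points are concentrated and open points even libraries. All Gabarap values of macrophages (189 to 469) lie above those of microglia (111 to 181), all but 1 Ulk2 value lies below 40 in macrophages, and the Sqstm1 ranges overlap.

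Pathway genes outside the members were counted in the same fits: 18 regulators, 21 other autophagosome genes and 12 selective receptors. Of 50 tested, 9 passed between populations, 4 higher and 5 lower in microglia, a share close to the 18.2% of all genes. The largest higher values were those of Rptor, the scaffold of the growth kinase complex mTORC1 (2.95 ± 0.51, edgeR adjusted p = 0.0016), Retreg1, a receptor for endoplasmic reticulum (1.69 ± 0.33, adjusted p = 0.00382), and Rubcnl, or Pacer (1.25 ± 0.36, adjusted p = 0.0347). The largest lower values were those of Bcl2, which binds Beclin 1 (-2.80 ± 0.53, adjusted p = 0.0033), Deptor, an mTOR inhibitor (-1.89 ± 0.35, adjusted p = 0.00255), and Vamp8, a fusion SNARE (-1.59 ± 0.41, adjusted p = 0.0187). Vamp8 was also higher in concentrated libraries at equal population (1.68 ± 0.16, adjusted p = 0.000174).

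PFF was compared with MONO in 7 libraries of each population, with genotype and sex as additive terms. No member passed in either population (edgeR), nor did any of all genes tested (0% of 11988 in macrophages and 0% of 12725 in microglia). At an unadjusted p under 0.05 there were 0 members in macrophages (1.04% of all genes) and 3 in microglia (6.01% of all genes), and DESeq2 and limma on FPKM also passed none. The median log2 change of the members was -0.23 in macrophages and 0.18 in microglia, beside -0.11 and 0.13 for all genes. The SE of a member had a median of 1.14 in macrophages and 0.34 in microglia, so changes of about 1 on the log2 scale were not detectable in most macrophage members.

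In the values that follow, the order is female WT, female CD163KO, male WT and male CD163KO, in scaled CPM, and the last MONO value of each gene was not in the fit. In microglia Map1lc3a, a neuron-rich LC3 isoform, was at 40.0, 16.8, 12.3 and 35.8 after MONO and at 61.9, 42.2, 43.9 and 55.6 after PFF. Every PFF library lay above every MONO library, as 1 of the 35 members and 2.62% of all genes did in either direction, and the change of 1.46 ± 0.42 had an adjusted p of 0.776 (edgeR; unadjusted 0.00566). Atg7 was at 12.8, 0.68, 4.65 and 6.52 after MONO and at 20.5, 6.87, 12.1 and 17.4 after PFF (1.97 ± 0.84, adjusted p = 0.776). Each PFF value was above its own MONO partner. The share of all genes with every pair moving the same way was not counted, for this gene or for those below. The male pairs each set a concentrated library against an even library. Without the female CD163KO MONO library, Atg7 was at 1.08 and Map1lc3a at 1.29. Wipi1, a phosphoinositide-binding protein, stayed at 6.37 or below in all 8 libraries (1.62 ± 1.88). The lowest values were those of Atg13, at 32.7, 17.2, 30.4 and 18.1 after MONO and 22.5, 13.8, 8.90 and 17.3 after PFF (-0.60 ± 0.39), each PFF value below its own MONO partner. Atg12 (-0.60 ± 0.32) and Tbk1 (-0.59 ± 0.32) lay beside it. Atg12 was at 27.3, 42.2, 33.9 and 15.8 after MONO and at 28.3, 25.5, 13.6 and 20.2 after PFF, and Tbk1 at 36.3, 66.1, 63.5 and 21.8 against 46.2, 40.9, 21.3 and 36.5. None of these groups was apart. For Atg13, Atg12 and Tbk1 alike the lowest PFF value was that of male WT PFF, the only concentrated microglia library in the fit. Atg12 was also lower in concentrated libraries at equal population (-1.33 ± 0.33). The part of count concentration in these changes was not tested.

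Sqstm1 in microglia was at 163, 112, 123 and 125.3 scaled CPM after MONO and at 228.5, 186, 129 and 164 after PFF. All PFF values were above the MONO value of the same sex and genotype, and the change of 0.58 ± 0.31 did not pass (edgeR adjusted p = 0.776). Here too the share of all genes with such pairs was not counted. In macrophages the receptor was at 145, 91.3, 119 and 106 after MONO and at 149, 114, 158 and 88.7 after PFF (0.27 ± 0.31, adjusted p = 1). Map1lc3b was at 122, 192, 170 and 311 in MONO microglia and at 175, 197, 253 and 175 in PFF microglia (0.35 ± 0.37), and at 473, 783, 545 and 284 in MONO macrophages and 459, 573, 252 and 516 in PFF macrophages (-0.46 ± 0.34). Becn1 was at 88.5, 102, 74.3 and 93.7 in MONO microglia and at 60.4, 80.3, 81.9 and 76.5 in PFF microglia (-0.19 ± 0.32), and its change in macrophages was 0.00 ± 0.32. For none of the 3 did the groups separate.

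In macrophages several of the largest changes after PFF moved with the male WT PFF library. Pik3c3 was at 20.0, 32.7, 39.9 and 48.8 scaled CPM after MONO and at 15.1, 12.0, 0.0378 and 17.5 after PFF (-1.63 ± 1.42, edgeR adjusted p = 1). Every MONO library lay above every PFF library, which held for 1 of the 35 members and for 1.97% of all genes in either direction. Gabarapl2 was at 38.5, 42.7, 79.7 and 14.2 after MONO and at 29.9, 21.2, 0.151 and 36.6 after PFF (-1.36 ± 1.31), and Atg16l1 was at 0 in male WT PFF alone (-1.49 ± 2.09). On the other side Rb1cc1 was at 17.2, 17.1, 11.1 and 20.5 after MONO and at 11.3, 14.3, 86.9 and 11.1 after PFF (0.54 ± 1.01). Atg12 had 16.5, 22.1, 31.4 and 72.2 against 8.94, 30.5, 92.6 and 11.2 (0.33 ± 0.87), and Wipi2 had 9.55, 7.02, 2.60 and 0 against 11.0, 10.1, 5.44 and 23.6 (0.94 ± 1.24). The same library thus held both the highest Rb1cc1 and Atg12 values and the lowest values of Pik3c3, Gabarapl2 and Atg16l1 in its population. Without it Rb1cc1 was at -0.32, Atg12 at -0.69, Pik3c3 at -1.01, Gabarapl2 at -0.71, Atg16l1 at -0.53 and Wipi2 at 1.14. Neutrophil markers summed to 121000, 98690, 118100 and 82000 FPKM after MONO and to 22150, 32840, 71460 and 134600 after PFF, and their part in these values was not tested.

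CD163KO was compared with WT in the same fits. No member passed in macrophages (0.00834% of all genes) or in microglia (0% of all genes) by edgeR, none had an unadjusted p under 0.05 in either, and DESeq2 and limma passed none. The members' median log2 change was 0.16 in macrophages and 0.01 in microglia, beside 0.14 and -0.04 over all genes. The macrophage median was -0.11 without male WT PFF, 0.67 without female CD163KO MONO and -0.19 with limma on log2(FPKM + 1), so its sign was not settled. Atg4b, the protease that primes LC3, had the lowest macrophage value, at 42.7, 38.9, 39.8 and 40.2 scaled CPM in WT (female MONO, female PFF, male MONO, male PFF; the third CD163KO value was not in the fit) and 14.04, 31.99, 38.2 and 16.2 in CD163KO (-1.08 ± 0.59, adjusted p = 1). The 4 WT libraries lay above the 4 CD163KO ones. In the same order Sqstm1 was at 145, 149, 119 and 158 in WT and at 91.3, 114, 106 and 88.7 in CD163KO macrophages (-0.58 ± 0.31, adjusted p = 1). Here too WT and CD163KO did not overlap. Over all 8 libraries, the one left out of the fit included, 3 of the 35 members and 1.57% of all genes separated by genotype in either direction, and the third of these members is Ulk1.

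Map1lc3b lay the other way in macrophages, at 473, 459, 545 and 252 in WT and at 783, 573, 284 and 516 in CD163KO (0.61 ± 0.34, edgeR adjusted p = 1). Becn1 was at 142, 158, 151 and 132 against 151, 173, 160.5 and 96.3 (-0.11 ± 0.33). The groups overlapped for both genes. The largest macrophage values were those of Calcoco1 (1.41 ± 1.98), at 12.4, 8.70, 6.23 and 0 in WT and 9.16, 17.9, 14.8 and 12.7 in CD163KO, of Ulk1 (1.39 ± 1.44), at 7.05, 10.4, 11.4 and 0.0755 against 21.2, 12.4, 46.4 and 15.1, and of Atg10 (1.30 ± 1.56). For Ulk1 every CD163KO library lay above every WT library, and its change was 0.82 without male WT PFF. Atg10, the E2-like enzyme of ATG12, had 5.01, 4.53, 7.53 and 0.68 in WT and 5.80, 11.3, 0.0365 and 10.6 in CD163KO. Rb1cc1 (-0.67 ± 0.99) and Ambra1, a Beclin 1 regulator (-0.72 ± 1.11), were the lowest after Atg4b. Ambra1 was at 14.6, 7.47, 11.7 and 11.4 against 6.72, 3.27, 0 and 8.31.

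In microglia the genotype values were smaller for most members. Atg7 was at 12.8, 20.5, 4.65 and 12.1 scaled CPM in WT (female MONO, female PFF, male MONO, male PFF) and at 0.68, 6.87, 6.52 and 17.4 in CD163KO (-1.61 ± 0.83, edgeR adjusted p = 1), and its change was -0.56 without the female CD163KO MONO library. Optn was at 7.66, 2.37, 0 and 1.964 against 0, 0.986, 1.499 and 3.02 (-1.78 ± 2.66), and Ambra1 at 25.7, 35.7, 27.2 and 12.7 against 8.66, 22.99, 14.99 and 29.5 (-0.60 ± 0.46). These groups overlapped. Atg14 had the largest value at 18.1, 27.02, 0.72 and 13.6 against 31.7, 17.4, 13.7 and 19.8 (0.64 ± 0.70), followed by Uvrag, a Beclin 1 partner (0.46 ± 0.35), at 12.8, 32.9, 20.9 and 19.0 against 26.8, 44.8, 17.7 and 30.6, and Atg10 (0.45 ± 0.75), at 7.79, 6.47, 1.11 and 5.08 against 13.5, 7.99, 6.19 and 4.68. Sqstm1 (-0.31 ± 0.30), Map1lc3b (0.00 ± 0.41) and Becn1 (0.10 ± 0.32) did not pass.

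**Figure D5:**
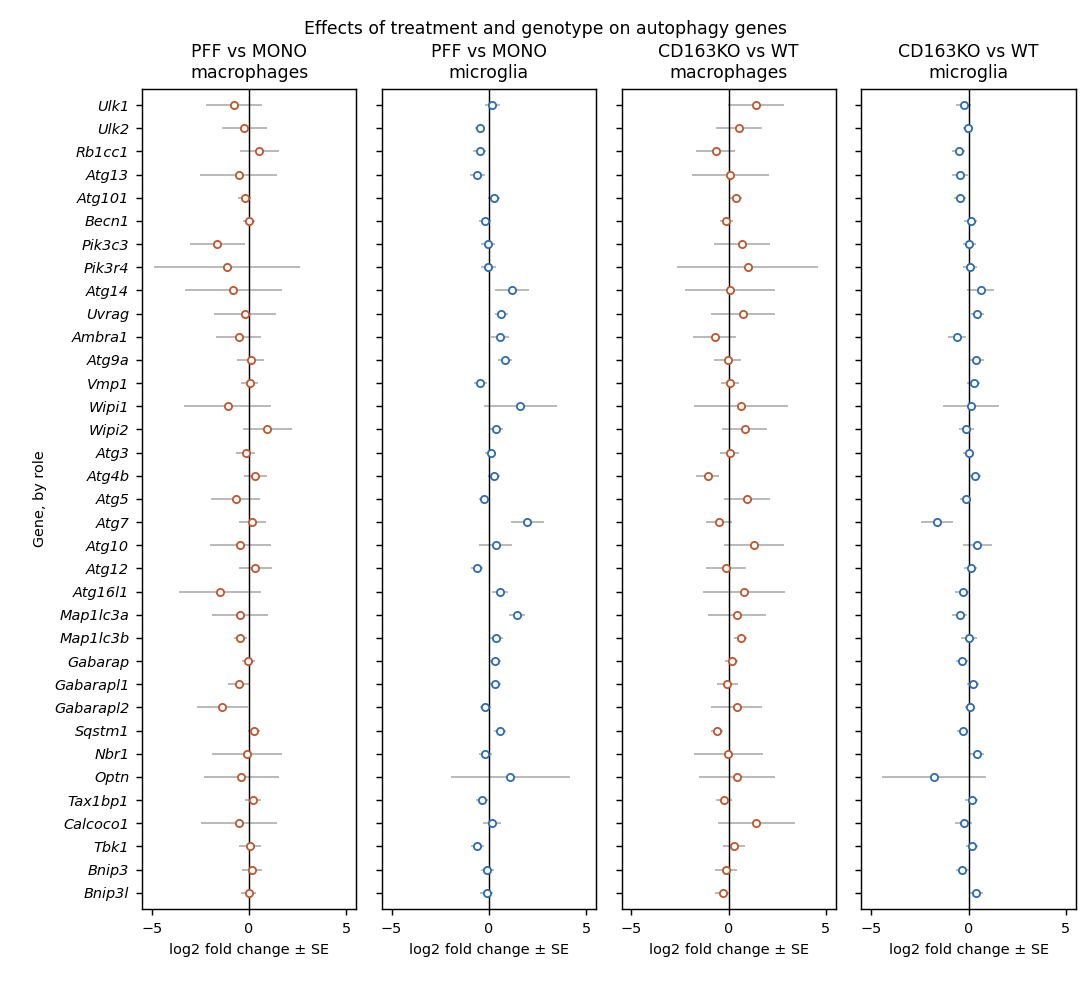
Log2 fold change ± SE of the 35 genes for PFF over MONO and CD163KO over WT, in 7 macrophage and 7 microglia libraries; open circles are values that did not pass the test. No gene passed in any panel, and the median SE is 1.14 and 1.11 in the macrophage panels and 0.34 and 0.35 in the microglia panels.

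The question of whether the response to PFF depends on CD163 was asked of the members as a genotype by treatment term, which left 2 residual degrees of freedom in each population. No member passed in macrophages (edgeR; 0% of 13020 genes; 0 members at an unadjusted p under 0.05) or in microglia (0.0211% of 14225 genes; 1 member and 4.77% of all genes at an unadjusted p under 0.05), and DESeq2 passed none. That member was Atg7 in microglia (3.15 ± 1.34, adjusted p = 0.891), which was at 12.8 and 20.5 scaled CPM in WT females and at 0.68 and 6.87 in CD163KO females, MONO before PFF. In males it was at 4.65 and 12.1 in WT and at 6.52 and 17.4 in CD163KO, and with all microglia libraries no member had an unadjusted p under 0.05 in microglia (0 of 35). The 0.68 is the value of the CD163KO MONO microglia library with Y-linked counts. The differences between microglia and macrophages in the PFF effect ran from -0.94 to 5.63 over the members, and those in the CD163KO effect from -3.71 to 1.45. No member passed in either (0% of 13704 genes in both, 0 members at an unadjusted p under 0.05), and DESeq2 passed none.

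Male and female libraries were compared in the same fits, and no member passed in macrophages or in microglia (edgeR; 0% of all genes in both; 0 members at an unadjusted p under 0.05; none by DESeq2 or limma). The microglia fit counts the CD163KO MONO library with Y-linked counts as female, as labelled, and without it 3 of 12571 genes passed, none of them a member. In macrophages the largest values were those of Atg12 (0.99 ± 1.08), Rb1cc1 (0.67 ± 1.14) and Vmp1 (0.55 ± 0.48), each with its highest value in male WT PFF, and the lowest those of Atg14 (-1.29 ± 2.07), Atg13 (-1.21 ± 1.73) and Optn (-1.17 ± 1.73), each with its lowest value there. Without that library Atg12 was at 0.12, Vmp1 at 0.17 and Atg14 at -0.54. Vmp1 was at 98.8, 59.0, 111 and 124 scaled CPM in females (WT MONO, WT PFF, CD163KO MONO, CD163KO PFF) and at 122, 219.8, 185 and 95.3 in males. Atg14 had 12.6, 5.39, 1.83 and 4.97 in females and 4.28, 0, 27.6 and 3.33 in males, Atg13 had 14.2, 9.19, 3.66 and 7.997 against 6.45, 0.0378, 50.7 and 5.28, and Optn had 7.88, 6.86, 3.66 and 7.76 against 4.72, 0.0755, 39.7 and 4.50. The highest values of Atg13, Atg14 and Optn were those of male CD163KO MONO, which was not in the fit.

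In microglia Pik3r4 was at 19.7, 19.5, 18.3 and 12.7 scaled CPM in females and at 20.3, 15.5, 27.6 and 32.6 in males (0.50 ± 0.38). Pik3c3 had 16.98, 18.2, 23.1 and 19.6 in females and 25.6, 24.3, 16.7 and 23.1 in males (0.50 ± 0.35), and Nbr1 25.3, 43.1, 53.5 and 54.3 against 69.7, 26.9, 20.3 and 54.1 (0.40 ± 0.34). The sexes overlapped for all 3. At the other end stood Wipi1 (-1.88 ± 1.79), at 5.49, 2.75, 2.01 and 6.37 against 0, 2.20, 2.74 and 3.58, Atg14 (-1.52 ± 0.88) and Atg10 (-1.18 ± 0.88). Atg14 at 0.72 and Wipi1 at 0 in male WT MONO microglia were the lowest of their genes in that population. Among the 50 pathway genes outside the members that were tested in microglia, and the 48 in macrophages, none passed for treatment, genotype or sex (edgeR), with at most 1 gene at an unadjusted p under 0.05 in any of these comparisons.

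The tables list several transcripts for 13 of the 35 members, and the split between them is an estimate. For Sqstm1 the 2030-base transcript took 47.6% to 86.6% of the FPKM in macrophages (median 61.9%) and 65.3% to 93.0% in microglia (median 79.4%), the rest going to one of 1916 bases. For Atg5, which is joined to ATG12, the 2396-base transcript took 91.9% to 100% in microglia, while in macrophages it ran from 0% to 100% (median 67.2%) at 33 to 1214 counts per library. Vmp1 was carried by its 2568-base transcript at 69.6% to 100% in microglia and 34.2% to 96.0% in macrophages.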

How the data were processed

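RNA of sorted cells was sequenced by SMART-seq2, and 16 deposited tables (8 macrophage, 8 microglia) were used, each called a library here. The authors removed ribosomal reads, aligned the rest with Bowtie2 and estimated transcript abundance with RSEM, and the submitters' processing notes name mm10. The estimated counts were deposited per transcript, not normalized. The FPKM values in the same deposited tables are the authors' counts per kilobase of transcript and library total. Of 27787 transcripts 27632 (99.4%) had a symbol in the RefSeq table, and values were summed per symbol and counts rounded. The study's own comparisons used DESeq2.

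The members and gene lists were chosen with earlier results of these data known. Genes were filtered with filterByExpr (minimum count 10), scaled by TMM and tested with edgeR's quasi-likelihood test (edgeR 4.0.16, R 4.3.3), with Benjamini-Hochberg adjustment over all genes tested and a threshold of 0.05. Both libraries of male CD163KO MONO were left out of the fits, as in the study. Its methods also describe a correction for batch and the removal of outlier samples, and the labels name batches of mice, but neither is tied to single tables in the sources used here, so neither entered the fits. Populations were compared with the matched pair as a block, since the study describes sorting both from the same brains. For female CD163KO MONO the Y-linked counts in microglia alone leave this unsettled. The deviations of paired libraries had correlations of -0.049 to 0.179. Treatment, genotype and sex were additive terms within a population, and interactions had a term of their own. The members described are those that passed, the 3 largest changes in each direction of a comparison, and Sqstm1, Map1lc3b and Becn1. Their library values are given once per population where several comparisons share them, or as a range. Alternatives were DESeq2 1.42.0, limma 3.58.1 on log2(FPKM + 1) and log2(FPKM + 0.1) where any library reached 1 FPKM, library size alone, no filter, no block, all libraries, and each library or pair left out. Fits with count concentration, within concentrated or even libraries, and without both reversed combinations were added after seeing the data. Between populations the last of these is the same fit as that with the male WT PFF pair left out. The tests were run on simulated counts in which all libraries shared the same mean profile. That check does not cover libraries that differ in count concentration, as these do. Total counts per library were 8648751 to 21433841, and they bound counting error only.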

Additional observations from a re-analysis of the deposited data

Results flagged for a closer look

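In 7 of 70 combinations of a member and a population, the library at one end lay far from the other 7 (Dixon's test on log2(FPKM + 1), threshold 0.526). Chance gives about 1 in 20. Of these, 3 were high values of male CD163KO MONO macrophages. Ulk1 was at 13 FPKM there and at 0.02 to 2.16 in the other macrophage libraries, Atg13 at 20.8 against 0.02 to 3.12, and Optn at 22.1 against 0.04 to 2.4. The other 4 were low values of male WT PFF. In its macrophages Map1lc3a was at 0.05 FPKM against 16.7 to 40.2 in the others, and Gabarapl2 at 0.23 against 12.0 to 81.2. In its microglia Map1lc3b was at 70.3 FPKM against 133 to 197, and Gabarapl1 at 4.27 against 13.7 to 32.1. On scaled CPM that library's Map1lc3b was not low, at 252.9 with the others at 122 to 311, and its Gabarapl1 was the lowest of the 8 at 15.9. All 7 thus fell in the combinations whose count concentration was reversed.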

How the results depend on the processing

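The count of members that passed between populations was 10 (18.2% of all genes), and 17 with DESeq2 (34.4%), 17 with limma on log2(FPKM + 1) (47.1%) and 17 on log2(FPKM + 0.1) (48.9%). It was 18 with library size alone (46%), 5 with no filter on low counts (13.8%) and 4 within concentrated libraries (18.8%). It was 9 without the block of matched pairs (23.2%) and 9 with all libraries (16.1%). Leaving out 1 pair gave 6 to 16 (13% to 35.7% of all genes), the highest without male WT PFF. These scalings moved the median of all genes from 0.37 to 1.96 with library size alone, 0.89 and 1.42 in the limma fits. Of the members lower in microglia, 5 turned to above 0, at library size alone, FPKM + 1 and FPKM + 0.1 in turn. Atg3 was at 0.40, 0.20 and 0.21. Becn1 was at 0.29, 0.22 and 0.22. Bnip3 was at 0.42, 0.25 and 0.27. Tax1bp1 was at 0.73, 0.49 and 0.51. Vmp1 was at 0.77, 0.52 and 0.53. Gabarap, Map1lc3b, Atg101 and Atg7 stayed below 0 in all 19 settings, and the cause of these shifts was not tested. The fit without male WT PFF is counted there under both of its names. By median level, 30 members were higher in microglia in FPKM and 20 in scaled CPM. In the other 10 comparisons none of 106 counts was above 0. With 7 libraries a population and a median SE of 1.14 in macrophages, small changes were not detectable there.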
